A study of Mus musculus with 6 samples.

Results

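The genes of mitosis and the mitotic spindle were followed in 3 groups of cultured mouse liver progenitor-like cells (LPCs). They are 40 of the 20540 genes shared by the 6 deposited count tables, taken by symbol for their known part in cell division. All 40 were found in every table and passed the filter on low counts. They comprise cyclin B and its kinase, other mitotic kinases, the chromosomal passenger complex, the spindle assembly checkpoint, centromere and kinetochore proteins, kinesin motors, spindle assembly factors, cytokinesis factors, chromosome structure proteins, the machinery of anaphase and 1 transcription factor.

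In dividing cells, cyclin B and Cdk1 start mitosis, the spindle forms from microtubules and motor proteins, and kinetochores tie the chromosomes to it. The spindle assembly checkpoint holds the anaphase-promoting complex back until all chromosomes are attached. Cdc20 then lets that ubiquitin ligase destroy securin and cyclin B, separase cuts cohesin and the cell divides. Most of these genes are transcribed late in the cell cycle, so their RNA is low in resting cells. In the adult liver most hepatocytes and bile duct cells rest, and they divide again after injury or in culture.

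Each group had 2 libraries of polyadenylated RNA, read in paired-end mode, and all mice were C57BL/6 of 6 to 8 weeks by their age label. Bec_LPCs grew out of bile duct pieces from inside the liver of WT mice, which were embedded in matrigel, passaged and sorted, and the series text describes them as Epcam+. Hep_LPCs were grown from hepatocytes of ROSA26tdTomato mice given AAV8-TBG-Cre, a virus in which the hepatocyte-active TBG promoter drives Cre. NPC_LPCs were grown from non-parenchymal cells, meaning all liver cells but hepatocytes, taken from AlbCreERT/R26GFP mice, in which the albumin promoter drives an inducible Cre. The medium was TEM, Transition and Expansion Medium, throughout. Cell source, mouse line, way of isolation and, for Bec_LPCs, the layout of the count tables change together between groups and cannot be told apart. The labels do not say whether the 2 replicates of a group were separate cultures or animals, and a p-value here therefore reflects no more than the spread between these libraries.

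Promoter sequences from RefSeq (GRCm38.p6) were used for 35 of the 40 genes, and those of Aurkb, Kif20a, Tpx2, Smc4 and Foxm1 were not analysed here. Genes of late cell cycle phases are known for a pair of promoter elements, the CCAAT box bound by NF-Y and the cell cycle genes homology region (CHR), written TTTGAA or TTTAAA. The start used is that of RefSeq, which for some genes differs from the GENCODE gene positions given below. The Cdk1, Ccnb1 and Ube2c windows, for example, lie partly inside the gene as GENCODE places it, and the Cenpa and Pttg1 windows wholly. The motif counts therefore depend on the annotation. Within the 100 bases before the RefSeq start, CCAAT stood on either strand in 23 of the 35 promoters, 65.7%, against 19.6% of 27025 mouse promoters. TTTGAA or TTTAAA, on either strand, stood in 11 of them, 31.4%, against 9.91% of all promoters. Both kinds were present in 9 of the 35, 25.7%, against 1.81% of all promoters. These 9 belong to Ube2c, Cdc20, Cenpa, Plk1, Cdk1, Top2a, Ccnb1, Espl1 and Kif11. A match in letters describes the sequence and does not show that a factor binds there.

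The sequences of 7 of these are shown from the end far from the start to the base just before it, as examples that carry both kinds of motif, with every match of either kind in capitals (ATTGG is CCAAT on the other strand, TTCAAA is TTTGAA on the other strand). No match overlaps another in these sequences. Mad2l1 is added as a gene with a large difference between groups and neither motif in this window.
Cdk1 (chr10:69352913-69353012, minus strand): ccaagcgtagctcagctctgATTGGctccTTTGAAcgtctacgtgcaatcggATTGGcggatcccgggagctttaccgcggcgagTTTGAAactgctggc
Ccnb1 (chr13:100786487-100786586, minus strand): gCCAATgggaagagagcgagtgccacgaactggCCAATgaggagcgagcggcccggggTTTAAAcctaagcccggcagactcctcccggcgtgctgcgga
Plk1 (chr7:122159335-122159434, plus strand): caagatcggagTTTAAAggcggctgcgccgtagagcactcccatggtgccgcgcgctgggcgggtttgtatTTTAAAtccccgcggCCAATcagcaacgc
Top2a (chr11:99024190-99024289, minus strand): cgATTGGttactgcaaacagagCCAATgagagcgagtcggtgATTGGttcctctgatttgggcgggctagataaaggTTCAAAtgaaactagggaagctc
Kif11 (chr19:37376282-37376381, plus strand): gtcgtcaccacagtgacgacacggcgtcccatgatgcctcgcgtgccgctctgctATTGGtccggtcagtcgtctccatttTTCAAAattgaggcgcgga
Espl1 (chr15:102296193-102296292, plus strand): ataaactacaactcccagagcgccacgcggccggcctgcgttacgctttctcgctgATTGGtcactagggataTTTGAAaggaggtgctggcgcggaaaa
Cdc20 (chr4:118437344-118437443, minus strand): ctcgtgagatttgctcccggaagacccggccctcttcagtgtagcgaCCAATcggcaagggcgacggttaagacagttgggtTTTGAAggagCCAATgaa
Mad2l1 (chr6:66535121-66535220, plus strand): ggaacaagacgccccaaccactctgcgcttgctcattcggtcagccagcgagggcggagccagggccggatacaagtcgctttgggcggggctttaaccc
In Cdk1 the nearest match was a TTTGAA that began 15 bases before the RefSeq start, and in Plk1 it was a CCAAT that began 14 bases before it. Of the 9 genes with both kinds, 6 were called lower in Bec_LPCs than in Hep_LPCs in the test described below. Of the other 26 genes with a sequence, 23 were, against 17.2% of all genes tested. The difference between the 9 and the 26 genes was not tested. Cdc20, Cenpa and Top2a were the genes with both kinds that were not called.

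Total counts were 22985844 and 22634867 in Bec_LPCs, 18123118 and 17575998 in Hep_LPCs, and 17919947 and 20625957 in NPC_LPCs, and each member had at least 216 reads in each library. Levels are CPM, read counts scaled to a common library size, after TMM normalization, and both libraries of a group are given, replicate 1 first. The chi-square between replicates over all genes, divided by its degrees of freedom, was 5.52 in Bec_LPCs, 92.6 in Hep_LPCs and 110.7 in NPC_LPCs, so the Bec_LPCs libraries were much closer to each other. Hep_LPCs replicate 2 stood apart in having 1 read of the Y-linked gene Ddx3y, against 1032 in Hep_LPCs replicate 1 and at least 1431 in each of the other 4 libraries. Markers of the source tissue fitted the labels in part. Epcam had 1397 and 1533 reads in Bec_LPCs, 6 and 31 in Hep_LPCs and 2 and 12 in NPC_LPCs, while 8, 7 and 6 of 10 biliary markers averaged at least 10 CPM in these groups. Of 10 hepatocyte markers 2 did so in each group, and Alb had at most 41 reads in any library. Markers of stellate cells and fibroblasts summed to 171 and 199 CPM in Bec_LPCs, to 15.5 and 10.1 CPM in Hep_LPCs and to 6.06 and 17.2 CPM in NPC_LPCs, with 3 of 10 at 10 CPM or more in Bec_LPCs, none of 10 in the other groups, and Lrat and Lum at 0 reads in all 6 libraries. Endothelial markers summed to 2.54 to 7.84 CPM over the 6 libraries. Leukocyte markers summed to 79.9 and 75.1 CPM in Bec_LPCs, 121 and 57.0 CPM in Hep_LPCs and 248 and 74.8 CPM in NPC_LPCs. Cd14 and Cd68 made up most of these sums. Ptprc had at most 18 reads in any library, and Cd3e, Clec4f and Nkg7 were at 0 reads throughout. Mesothelial markers summed to 522 to 1797 CPM, mostly Msln and Krt19, and globin genes had at most 3 reads in any library. The part of these cell types in the results was not tested.

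Together the 40 genes were lowest in Bec_LPCs and highest in Hep_LPCs. Their summed level was 1547 and 1821 CPM in Bec_LPCs, 7093 and 4596 CPM in Hep_LPCs, and 2574 and 4306 CPM in NPC_LPCs. The median gene stood at 29.9 and 36.4 CPM in Bec_LPCs, 119 and 93.8 CPM in Hep_LPCs, and 45.7 and 73.6 CPM in NPC_LPCs. On group means 38 of the 40 genes followed the order Bec_LPCs, NPC_LPCs, Hep_LPCs from low to high. Cenpa was lowest in NPC_LPCs and Pttg1 highest there. In 28 of the 40 genes both Bec_LPCs libraries lay below all 4 others. The share over all genes was not taken for this count. It cannot exceed 33% of the genes tested, the share with both Bec_LPCs libraries below both NPC_LPCs libraries. In bulk RNA, fewer dividing cells and less of such RNA per dividing cell cannot be told apart.

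**Figure D1:**
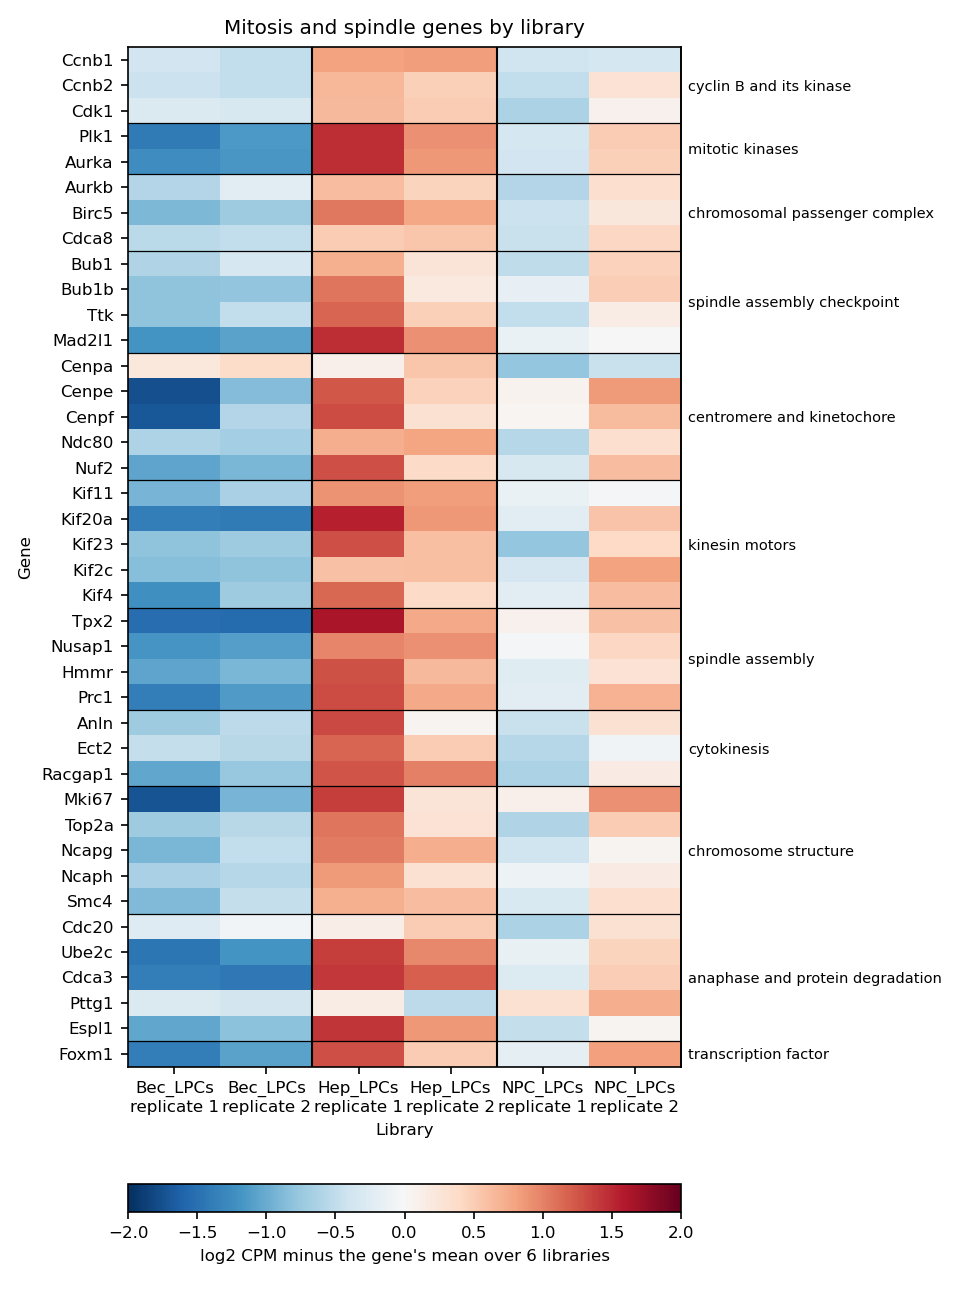
Heat map of the 40 genes (rows, grouped by role) in the 6 libraries (columns), coloured by log2 CPM minus the gene's own mean over the 6 libraries. Most rows are blue in both Bec_LPCs columns and red in both Hep_LPCs columns, and NPC_LPCs replicate 2 is redder than replicate 1 in all 40 rows.

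Bec_LPCs were lower than Hep_LPCs in every stage of mitosis that the genes cover. In this comparison 33 of the 40 genes fell at an adjusted p under 0.05 in edgeR's quasi-likelihood test (Benjamini-Hochberg adjustment over 12858 genes), and none rose. Over all genes tested, 17.2% were called lower and 33.4% were called in either direction. The median log2 fold change of the 40 was -1.69, a fall by 3.23-fold, against 0.03 for all genes, and 14 of the 40 were at least 4-fold lower. The 2 Bec_LPCs libraries lay below both Hep_LPCs libraries for 38 of the 40 genes, against 36.8% of all genes. The calls rest on both Bec_LPCs libraries. Most were lost when either was left out, and many without Hep_LPCs replicate 1. Fewer of all genes tested were called in each of these fits as well. Such fits assume that the lone library varies like the other groups. The median was -1.51 without replicate 1 of Bec_LPCs, -1.80 without its replicate 2 and -1.39 without Hep_LPCs replicate 1. Without Hep_LPCs replicate 2, the library with almost no Ddx3y reads, the median was -1.91. Mad2l1, Tpx2, Nusap1, Ube2c and Cdca3 were called with each of the 6 libraries left out in turn. Fold changes below are log2 values ± SE, where the SE borrows spread across genes.

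Cyclin B and its kinase, which together trigger entry into mitosis, fell by the smallest amounts among the groups of genes that were called in full. Cdk1 (chr10:69335146-69352938, minus strand in mm10), the kinase itself, stood at 57.5 and 56.2 CPM in Bec_LPCs, 111 and 100.2 CPM in Hep_LPCs and 45.3 and 74.9 CPM in NPC_LPCs. It was 1.86-fold lower in Bec_LPCs than in Hep_LPCs (log2 fold change -0.89 ± 0.26, adjusted p = 0.0447), with no overlap between the libraries of these groups. Ccnb1, cyclin B1, stood at 39.5 and 36.6 CPM in Bec_LPCs, 89.8 and 92.1 CPM in Hep_LPCs and 39.1 and 40.6 CPM in NPC_LPCs, and it fell by 2.39-fold against Hep_LPCs (-1.26 ± 0.15, adjusted p = 0.00464). Its Bec_LPCs and NPC_LPCs libraries were alike and both Hep_LPCs libraries lay well above them. Ccnb1 is uncertain, since it has 3 processed pseudogenes of near-identical sequence with which the authors' counting may have shared reads. Ccnb2, cyclin B2, stood at 29.5 and 28.3 CPM in Bec_LPCs, 63.0 and 55.6 CPM in Hep_LPCs and 28.5 and 48.8 CPM in NPC_LPCs and also fell against Hep_LPCs (-1.04 ± 0.28, adjusted p = 0.0368).

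The kinases Plk1 and Aurka, which mature the centrosomes and build the spindle poles, showed falls of over 5-fold. Plk1 (chr7:122159439-122169873, plus strand) stood at 26.0 and 31.2 CPM in Bec_LPCs, 192 and 130.3 CPM in Hep_LPCs and 54.2 and 98.4 CPM in NPC_LPCs. Aurka, which is held active on the spindle by Tpx2, stood at 25.4 and 26.8 CPM in Bec_LPCs, 167 and 109.7 CPM in Hep_LPCs and 46.1 and 83.4 CPM in NPC_LPCs. In both genes the Bec_LPCs libraries were close together, the Hep_LPCs libraries were highest and the 3 groups did not overlap. Against Hep_LPCs, Plk1 fell by 5.63-fold (-2.49 ± 0.36, adjusted p = 0.00718) and Aurka by 5.30-fold (-2.41 ± 0.35, adjusted p = 0.00773).

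The chromosomal passenger complex corrects faulty attachments of chromosomes and later marks the cleavage plane. Its kinase Aurkb stood at 16.7 and 21.7 CPM in Bec_LPCs, 38.7 and 34.4 CPM in Hep_LPCs and 16.8 and 31.7 CPM in NPC_LPCs, a difference against Hep_LPCs that did not pass the test (-0.93 ± 0.34, adjusted p = 0.0811). Birc5, known as survivin, stood at 24.3 and 27.7 CPM in Bec_LPCs, 94.8 and 77.7 CPM in Hep_LPCs and 33.6 and 52.9 CPM in NPC_LPCs and fell by 3.32-fold (-1.73 ± 0.27, adjusted p = 0.00863). Cdca8, known as borealin, stood at 21.8 and 22.6 CPM in Bec_LPCs, 45.1 and 46.3 CPM in Hep_LPCs and 23.2 and 42.0 CPM in NPC_LPCs and fell by 2.06-fold (-1.04 ± 0.30, adjusted p = 0.0431). In all 3 genes both Bec_LPCs libraries lay below both Hep_LPCs libraries.

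Of the 4 checkpoint genes, 3 were called lower. Mad2l1 (chr6:66535390-66547220, plus strand), which encodes the Mad2 protein that inhibits Cdc20 while chromosomes are unattached, stood at 36.7 and 39.9 CPM in Bec_LPCs, 234 and 158 CPM in Hep_LPCs and 77.1 and 85.0 CPM in NPC_LPCs. The groups were fully apart, and it fell by 5.12-fold against Hep_LPCs (-2.36 ± 0.24, adjusted p = 0.00308). Bub1b, which encodes BubR1 of the inhibitory complex, stood at 35.2 and 35.3 CPM in Bec_LPCs, 128 and 70.6 CPM in Hep_LPCs and 54.8 and 86.3 CPM in NPC_LPCs and fell by 1.50 ± 0.35 on the log2 scale (adjusted p = 0.0255). Ttk, the kinase that starts checkpoint signalling, stood at 12.6 and 15.6 CPM in Bec_LPCs, 49.1 and 30.5 CPM in Hep_LPCs and 15.5 and 24.2 CPM in NPC_LPCs and fell by 1.50 ± 0.34 (adjusted p = 0.0237). In Bub1b and Ttk the higher of the 2 Hep_LPCs libraries was replicate 1, by over 1.5-fold. Bub1, the kinase that recruits checkpoint proteins to kinetochores, had a log2 fold change of -0.97 ± 0.35 and was not called (adjusted p = 0.0816).

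Among the centromere and kinetochore genes, 4 of 5 fell and Cenpa did not. Cenpa (chr5:30666777-30674830, plus strand), the histone variant that marks the centromere, stood at 24.7 and 27.5 CPM in Bec_LPCs, 23.1 and 31.3 CPM in Hep_LPCs and 12.5 and 15.8 CPM in NPC_LPCs. Its Bec_LPCs libraries lay between the 2 Hep_LPCs libraries (-0.06 ± 0.25, adjusted p = 0.87) and above both NPC_LPCs libraries. The sign of this small difference from Hep_LPCs turned when library sizes were left unscaled (0.12). Cenpe, the kinesin that carries chromosomes to the spindle equator, stood at 29.2 and 54.1 CPM in Bec_LPCs, 232 and 136 CPM in Hep_LPCs and 104 and 177 CPM in NPC_LPCs and fell by 4.42-fold (-2.15 ± 0.45, adjusted p = 0.0188). Cenpf, a large kinetochore protein, stood at 22.5 and 48.5 CPM in Bec_LPCs, 179 and 90.3 CPM in Hep_LPCs and 74.5 and 112 CPM in NPC_LPCs and fell by 3.79-fold (-1.92 ± 0.50, adjusted p = 0.033). Both Cenpe and Cenpf were about as variable within Bec_LPCs as within the other groups, with replicate 2 the higher. Ndc80 and Nuf2 form the complex that grips microtubules. Ndc80 stood at 14.3 and 13.7 CPM in Bec_LPCs, 36.3 and 38.0 CPM in Hep_LPCs and 14.8 and 27.7 CPM in NPC_LPCs (-1.40 ± 0.32, adjusted p = 0.0236). Nuf2 stood at 13.0 and 14.1 CPM in Bec_LPCs, 65.1 and 35.0 CPM in Hep_LPCs and 21.4 and 41.3 CPM in NPC_LPCs (-1.89 ± 0.43, adjusted p = 0.0229), so that both partners fell.

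All 5 kinesin motors were called lower than in Hep_LPCs. Kif11, the motor that pushes spindle poles apart, stood at 35.4 and 42.7 CPM in Bec_LPCs, 126 and 120.2 CPM in Hep_LPCs and 61.2 and 66.5 CPM in NPC_LPCs and fell by 3.15-fold (-1.65 ± 0.17, adjusted p = 0.00328). Its replicates were close in all 3 groups and the groups did not overlap. Kif20a, a motor of the central spindle, stood at 39.7 and 38.9 CPM in Bec_LPCs, 304 and 188 CPM in Hep_LPCs and 89.4 and 154 CPM in NPC_LPCs and fell by 6.25-fold (-2.64 ± 0.36, adjusted p = 0.00625). Kif20a is uncertain, because 29.3% of its exonic length lies over Cdc23 on the opposite strand and the sources used here do not give the strand setting of the counting. Cdc23, a subunit of the anaphase-promoting complex, stood at 49.5 and 52.8 CPM in Bec_LPCs, 44.1 and 42.4 CPM in Hep_LPCs and 40.8 and 59.3 CPM in NPC_LPCs. Kif23, the motor of centralspindlin, stood at 69.1 and 74.0 CPM in Bec_LPCs, 296 and 185 CPM in Hep_LPCs and 70.6 and 160.0 CPM in NPC_LPCs (-1.75 ± 0.43, adjusted p = 0.0286). Kif2c, which takes microtubules apart at centromeres, stood at 17.7 and 18.3 CPM in Bec_LPCs, 48.3 and 48.8 CPM in Hep_LPCs and 25.5 and 55.8 CPM in NPC_LPCs (-1.43 ± 0.37, adjusted p = 0.0329). Both fell, and in Kif2c the Hep_LPCs libraries were nearly equal. Kif4, a motor on chromosome arms, stood at 16.2 and 23.1 CPM in Bec_LPCs, 84.2 and 49.4 CPM in Hep_LPCs and 32.4 and 57.7 CPM in NPC_LPCs and fell by 3.40-fold (-1.77 ± 0.40, adjusted p = 0.0231).

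The spindle assembly factors held the largest fall of the 40 genes. Tpx2 (chr2:152847964-152895321, plus strand), which starts microtubule growth near chromosomes, stood at 60.0 and 59.9 CPM in Bec_LPCs, 539 and 294 CPM in Hep_LPCs and 184 and 259 CPM in NPC_LPCs. The Bec_LPCs libraries were nearly equal, and Tpx2 fell by 6.95-fold against Hep_LPCs (-2.80 ± 0.35, adjusted p = 0.00505). Prc1, which bundles antiparallel microtubules, stood at 43.9 and 52.2 CPM in Bec_LPCs, 281 and 194 CPM in Hep_LPCs and 97.3 and 184 CPM in NPC_LPCs and fell by 4.94-fold (-2.31 ± 0.36, adjusted p = 0.00909). Nusap1, which stabilises spindle microtubules, stood at 17.4 and 18.3 CPM in Bec_LPCs, 76.8 and 73.6 CPM in Hep_LPCs and 38.7 and 52.0 CPM in NPC_LPCs and fell by 4.21-fold (-2.07 ± 0.20, adjusted p = 0.00295). Hmmr, a hyaluronan receptor that also binds the spindle, stood at 37.0 and 40.3 CPM in Bec_LPCs, 185 and 119.6 CPM in Hep_LPCs and 64.3 and 93.8 CPM in NPC_LPCs and fell by 3.94-fold (-1.98 ± 0.29, adjusted p = 0.00791). In these 4 genes the Bec_LPCs libraries lay below every other library.

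**Figure D2:**
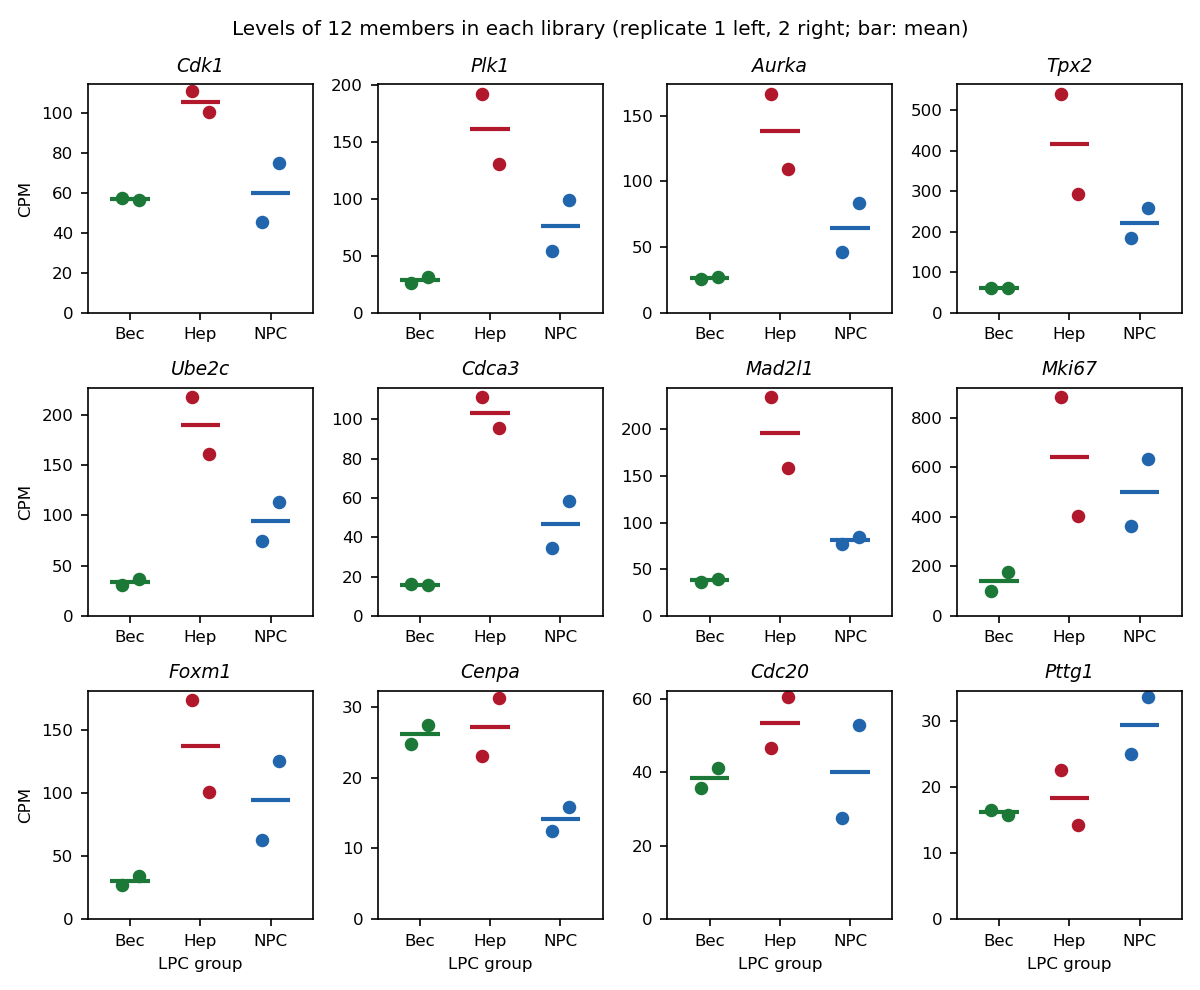
CPM (vertical axes, from 0) of 12 genes in the libraries of Bec_LPCs, Hep_LPCs and NPC_LPCs (points; bars are group means). Tpx2, Ube2c, Cdca3 and Mad2l1 are lowest in Bec_LPCs with no overlap between groups, while Cenpa, Cdc20 and Pttg1 show little difference between Bec_LPCs and Hep_LPCs.

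For cytokinesis, the final separation of daughter cells, 2 of 3 genes were called. Ect2, which activates RhoA at the cell equator, stood at 57.7 and 55.0 CPM in Bec_LPCs, 179.5 and 114 CPM in Hep_LPCs and 54.4 and 76.8 CPM in NPC_LPCs and fell by 2.61-fold (-1.38 ± 0.28, adjusted p = 0.0175). Racgap1, the partner of Kif23 in centralspindlin, stood at 33.5 and 40.5 CPM in Bec_LPCs, 165 and 138 CPM in Hep_LPCs and 44.0 and 76.8 CPM in NPC_LPCs and fell by 4.09-fold (-2.03 ± 0.30, adjusted p = 0.00805). Anln, which encodes the actin-binding anillin of the contractile ring, stood at 81.3 and 92.4 CPM in Bec_LPCs, 334 and 138 CPM in Hep_LPCs and 98.3 and 165 CPM in NPC_LPCs and missed the threshold (-1.44 ± 0.46, adjusted p = 0.0573). Its 2 Hep_LPCs libraries were the furthest apart of all 40 genes, and both still lay above Bec_LPCs.

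Of the 5 genes of chromosome structure, 4 fell. Mki67 (chr7:135689784-135716361, minus strand), whose protein Ki-67 coats mitotic chromosomes and serves as the usual marker of proliferation, stood at 102 and 177 CPM in Bec_LPCs, 881 and 401 CPM in Hep_LPCs and 362 and 633 CPM in NPC_LPCs. It fell by 4.60-fold (-2.20 ± 0.51, adjusted p = 0.0239), and its Hep_LPCs libraries differed over 2-fold. Top2a, the topoisomerase that untangles sister chromatids, stood at 203 and 226 CPM in Bec_LPCs, 696 and 406 CPM in Hep_LPCs and 217 and 469 CPM in NPC_LPCs and was not called (-1.36 ± 0.43, adjusted p = 0.0549). The condensin genes Smc4, Ncapg and Ncaph encode the ring that compacts chromosomes. Smc4 stood at 68.9 and 90.9 CPM in Bec_LPCs, 208 and 193 CPM in Hep_LPCs and 103 and 159 CPM in NPC_LPCs (-1.33 ± 0.26, adjusted p = 0.0163). Ncapg stood at 23.5 and 31.6 CPM in Bec_LPCs, 91.0 and 73.4 CPM in Hep_LPCs and 33.6 and 46.0 CPM in NPC_LPCs (-1.58 ± 0.26, adjusted p = 0.00972). Ncaph stood at 35.9 and 37.7 CPM in Bec_LPCs, 101 and 68.8 CPM in Hep_LPCs and 52.1 and 62.8 CPM in NPC_LPCs (-1.21 ± 0.23, adjusted p = 0.0152). All 3 fell by similar amounts, with both Bec_LPCs libraries the lowest of the 6.

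The genes of anaphase and protein degradation diverged most among themselves. Ube2c (chr2:164769898-164778822, plus strand), the ubiquitin-conjugating enzyme of the anaphase-promoting complex, stood at 30.3 and 36.2 CPM in Bec_LPCs, 217 and 161 CPM in Hep_LPCs and 74.8 and 113 CPM in NPC_LPCs and fell by 5.69-fold (-2.51 ± 0.28, adjusted p = 0.00405). Cdca3, an F-box-like protein that promotes mitotic entry, stood at 16.0 and 15.5 CPM in Bec_LPCs, 111 and 95.4 CPM in Hep_LPCs and 34.6 and 58.6 CPM in NPC_LPCs and fell by 6.57-fold (-2.72 ± 0.29, adjusted p = 0.00357). Espl1, which encodes separase, stood at 16.4 and 19.1 CPM in Bec_LPCs, 90.7 and 61.7 CPM in Hep_LPCs and 24.2 and 35.1 CPM in NPC_LPCs and fell by 4.29-fold (-2.10 ± 0.29, adjusted p = 0.00661). These 3 genes kept the groups fully apart, while the next 2 did not. Cdc20, the activator of the complex, stood at 35.7 and 41.2 CPM in Bec_LPCs, 46.6 and 60.5 CPM in Hep_LPCs and 27.4 and 52.8 CPM in NPC_LPCs, with a log2 fold change of -0.48 ± 0.34 that was not called (adjusted p = 0.307). Pttg1 (chr11:43420250-43426251, minus strand), which encodes securin, the inhibitor of separase, stood at 16.6 and 15.8 CPM in Bec_LPCs, 22.6 and 14.2 CPM in Hep_LPCs and 25.1 and 33.6 CPM in NPC_LPCs. Its Bec_LPCs libraries lay between the 2 Hep_LPCs libraries (-0.19 ± 0.30, adjusted p = 0.645). Ube2c overlaps Tnnc2 on the opposite strand over 22.8% of its exonic length, and Tnnc2 had at most 6 reads in any library.

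Foxm1 (chr6:128362967-128376146, plus strand), a transcription factor that activates many late cell cycle genes, stood at 27.1 and 33.9 CPM in Bec_LPCs, 173 and 100.4 CPM in Hep_LPCs and 62.7 and 125 CPM in NPC_LPCs. It fell by 4.49-fold against Hep_LPCs (-2.17 ± 0.42, adjusted p = 0.0154), and both Bec_LPCs libraries lay below all others.

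**Figure D3:**
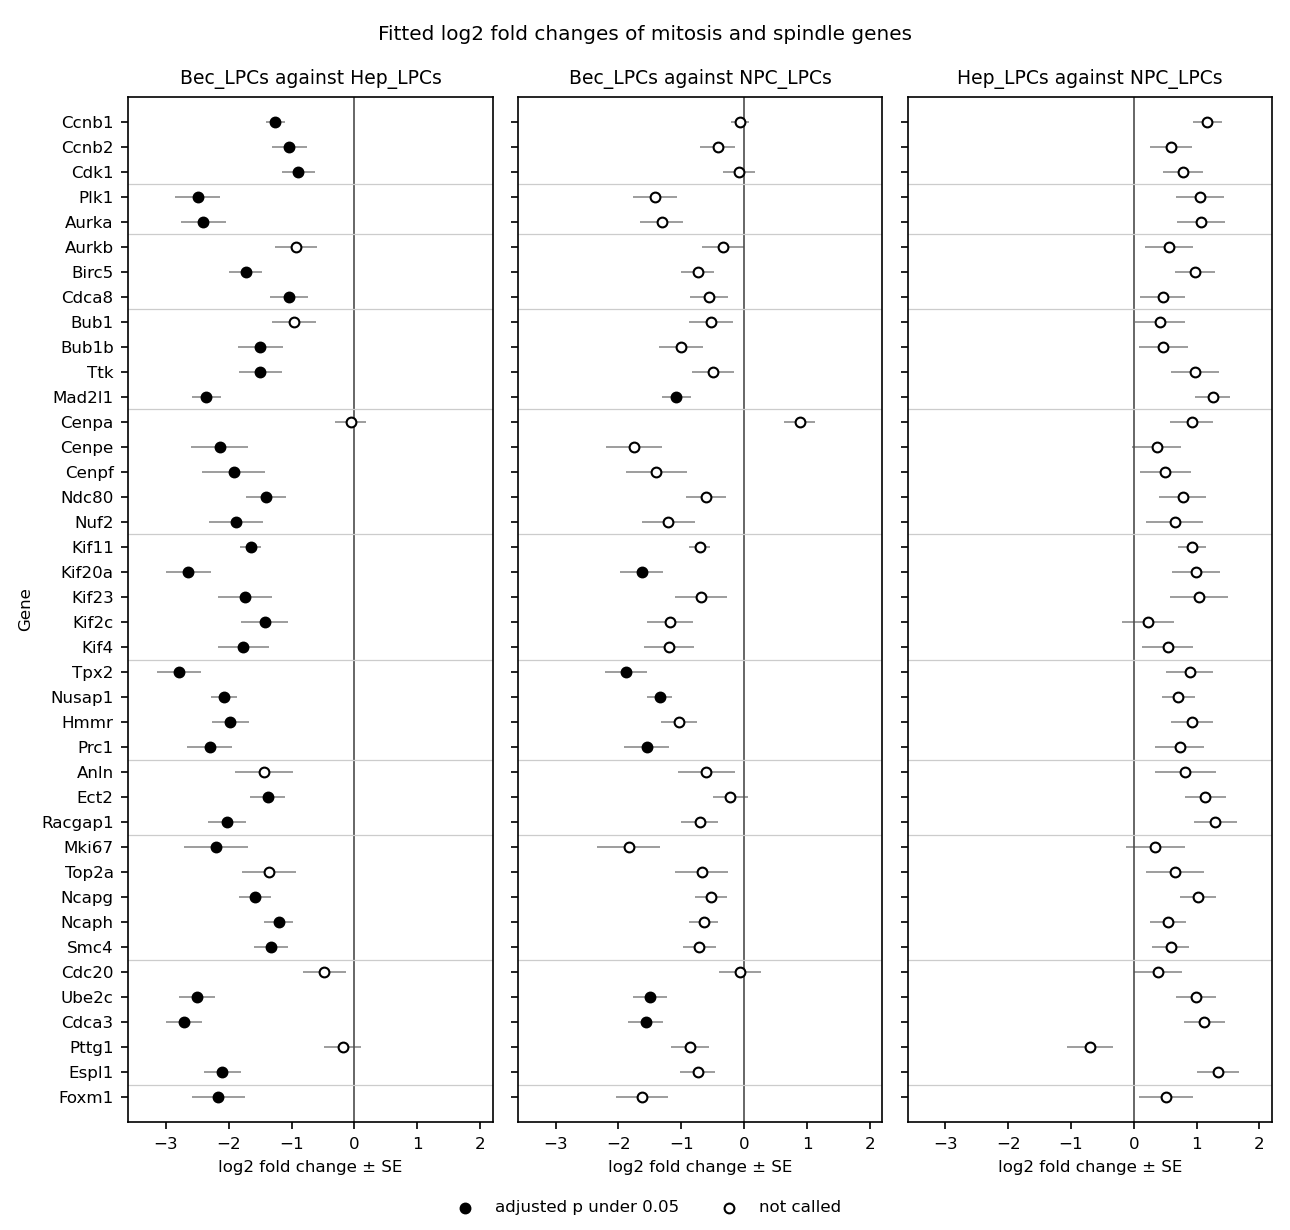
Fitted log2 fold changes (horizontal axes; bars are ± SE) of the 40 genes in the 3 comparisons, with filled points for genes called at an adjusted p under 0.05. Against Hep_LPCs 33 points of Bec_LPCs are filled and all lie left of 0, against NPC_LPCs 7 are filled, and between Hep_LPCs and NPC_LPCs none is filled.

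Bec_LPCs also stood below NPC_LPCs, by less. This comparison shares its Bec_LPCs libraries with the one above, so the 2 sets of values are given side by side and are not independent. Mad2l1, Kif20a, Tpx2, Nusap1, Prc1, Ube2c and Cdca3 fell, 7 of the 40 genes in edgeR's test, and none rose. Over the 12858 genes tested, 6.43% were called lower and 11.3% in either direction. The median log2 fold change of the 40 was -0.74, against 0.01 for all genes, and 39 of 40 had a negative sign. Both Bec_LPCs libraries lay below both NPC_LPCs libraries for 29 of 40 genes, against 33% of all genes. The calls were not kept when either Bec_LPCs library was left out, where few of all genes were called either. The medians there were -0.67 without replicate 1 and -0.85 without replicate 2. The median was -1.14 without NPC_LPCs replicate 1. Without NPC_LPCs replicate 2 it was -0.50, and 8 of the 40 genes had a positive sign.

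The spindle assembly factors led this comparison, with 3 of 4 called. Tpx2 was 3.70-fold lower in Bec_LPCs than in NPC_LPCs (-1.89 ± 0.34, adjusted p = 0.0274). Prc1 was 2.93-fold lower (-1.55 ± 0.35, adjusted p = 0.0471). Nusap1 was 2.54-fold lower (-1.34 ± 0.20, adjusted p = 0.0188). Of the genes listed under anaphase and protein degradation, the conjugating enzyme Ube2c and the mitotic entry factor Cdca3 were called. Ube2c fell by 2.83-fold (-1.50 ± 0.27, adjusted p = 0.0287) and Cdca3 by 2.96-fold (-1.57 ± 0.28, adjusted p = 0.0274). The checkpoint inhibitor Mad2l1 fell by 2.11-fold (-1.08 ± 0.23, adjusted p = 0.0404). Kif20a, uncertain as above, fell by 3.09-fold (-1.63 ± 0.34, adjusted p = 0.0405). For all 7 the libraries of the 2 groups were apart.

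Cyclin B and its kinase were close to NPC_LPCs, with log2 fold changes of -0.07 ± 0.15 in Ccnb1, -0.08 ± 0.26 in Cdk1 and -0.42 ± 0.28 in Ccnb2, libraries that overlapped and no call (adjusted p = 0.791, 0.856 and 0.352). When library sizes were left unscaled, the all-gene median moved to 0.17 and the values of Ccnb1, Cdk1 and Cdc20 turned to 0.09, 0.08 and 0.10, still below that median. Large values that missed the threshold included Mki67 (-1.84 ± 0.50, adjusted p = 0.0689), Cenpe (-1.76 ± 0.44, adjusted p = 0.0596) and Foxm1 (-1.62 ± 0.42, adjusted p = 0.061). Cenpa was the sole gene with a positive sign, 1.85-fold higher in Bec_LPCs (0.88 ± 0.25, adjusted p = 0.0737). Both its Bec_LPCs libraries lay above both NPC_LPCs libraries, and it was called higher by DESeq2 and in the fit of the 4 libraries of these groups, but not in edgeR's test of all 6.

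The comparison of Hep_LPCs with NPC_LPCs is the one that the growth protocol gives as the purpose of sequencing these groups. Hep_LPCs had the higher mean in 39 of the 40 genes, but none passed the adjusted threshold in edgeR's test of the 4 libraries, where 0.782% of 12155 genes were called. The median log2 fold change was 0.78, against a value of -0.004 for all genes. At an unadjusted p under 0.05, 18 of the 40 genes were higher in Hep_LPCs and none lower, against 10.5% of all genes higher. DESeq2's Wald test called 9 of the 40 higher, against 5.83% of all genes, and limma-voom called none. EdgeR with all 6 libraries in the fit called 5, all higher, where 9.91% of 12858 genes were called in either direction. Both Hep_LPCs libraries lay above both NPC_LPCs libraries in 27 genes, against 28.9% of all genes. The median was 1.22 without NPC_LPCs replicate 2, 0.49 without NPC_LPCs replicate 1, 0.96 without Hep_LPCs replicate 2 and 0.59 without Hep_LPCs replicate 1, where 5 of the 40 genes had a negative sign. EdgeR called none of the 40 in any of these 4 fits, which called few or none of all genes.

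The 6 genes with the smallest unadjusted p served several steps of division. Ccnb1, uncertain as above, was 2.25-fold higher in Hep_LPCs (1.17 ± 0.23, adjusted p = 0.0794), and Mad2l1 2.39-fold (1.25 ± 0.28, adjusted p = 0.095). Kif11 had 0.92 ± 0.23 (adjusted p = 0.107), Espl1 1.34 ± 0.33 (adjusted p = 0.107), Racgap1 1.30 ± 0.34 (adjusted p = 0.115) and Ncapg 1.02 ± 0.28 (adjusted p = 0.127). These 6 genes had non-overlapping libraries and were among the 9 called by DESeq2, which were Ccnb1, Mad2l1, Kif11, Ect2, Racgap1, Ncapg, Ube2c, Cdca3 and Espl1. Plk1 (1.05 ± 0.38, adjusted p = 0.19) and Aurka (1.07 ± 0.38, adjusted p = 0.189) were apart as well. In the proliferation marker Mki67 the groups overlapped (0.34 ± 0.47, adjusted p = 0.703), since Hep_LPCs replicate 2 lay below NPC_LPCs replicate 2. Pttg1 was the sole gene with a negative sign (-0.70 ± 0.36, adjusted p = 0.321), with both Hep_LPCs libraries below both NPC_LPCs libraries.

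Within groups the genes moved together from 1 library to the other. In NPC_LPCs all 40 were higher in replicate 2 than in replicate 1, by a median of 0.75 on the log2 scale, while 50.7% of all genes at 10 CPM or more were higher and their median was 0.004. In Hep_LPCs 34 of the 40 were lower in replicate 2, with a median of -0.56 against -0.02 for all genes. In Bec_LPCs 31 of 40 were higher in replicate 2, with a median of 0.15 against -0.006. The widest gaps were 1.18 in Kif23 for NPC_LPCs, -1.28 in Anln for Hep_LPCs and 1.11 in Cenpf for Bec_LPCs, and the narrowest were 0.06 in Ccnb1, 0.02 in Kif2c and -0.002 in Tpx2. With 1 value per library these gaps carry no test.

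Transcript length went along with part of the gap in Hep_LPCs. Over all genes there, the median of replicate 2 minus replicate 1 was 0.21 for reference transcripts up to 1500 bases and -0.39 for those of 7500 to 12000 bases. The genes of mitosis lay below this line at most lengths, and Cenpa, with a short transcript of 1466 bases, was 0.44. In Bec_LPCs all genes of 7500 to 12000 bases had a median of 0.004, while Cenpf, Cenpe and Mki67, with transcripts of 11130, 7910 and 10061 bases, had 1.11, 0.89 and 0.80. Mad2l1, the other of the 40 in this length class at 7557 bases, had 0.12. Between groups, the all-gene median of Bec_LPCs against Hep_LPCs ran from -0.26 for the shortest class to 0.42 at 7500 to 12000 bases. With the trend on length removed, a setting added after it was seen, 33 genes were called lower in Bec_LPCs than in Hep_LPCs, against 18.5% of all genes. Against NPC_LPCs 10 were called lower, beside 7.53% of all genes. Between Hep_LPCs and NPC_LPCs none was called, beside 0.601% of all genes in either direction.

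**Figure D4:**
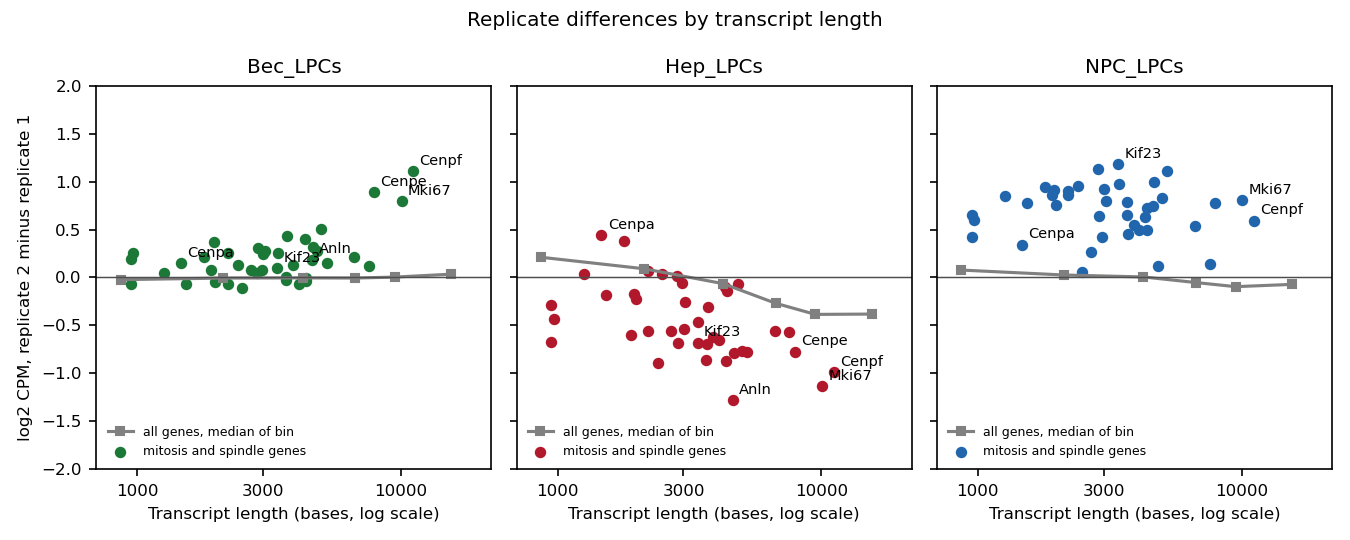
Difference in log2 CPM between replicate 2 and replicate 1 (vertical axis) against reference transcript length in bases (log axis) for the 40 genes (coloured points) and the median of all genes by length class (grey squares) in each group. All 40 points are above 0 in NPC_LPCs and 34 of 40 are below 0 in Hep_LPCs, where the grey line falls with length, and Cenpf, Cenpe and Mki67 stand highest in Bec_LPCs.

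Levels between genes were compared as mean CPM per kilobase of reference transcript, a scale that depends on the isoform taken as reference. Ube2c was highest in Hep_LPCs and NPC_LPCs and came after Top2a, at 41.1, in Bec_LPCs. Ube2c stood at 34.4 in Bec_LPCs, 196 in Hep_LPCs and 97.2 in NPC_LPCs. Espl1 was lowest, at 2.67, 11.4 and 4.45 in the same groups, and held rank 40 of 40 in each. Top2a held rank 2 in both Hep_LPCs and NPC_LPCs. The order among the genes was not the same in each group. Tpx2 held rank 16 in Bec_LPCs and rank 3 in both Hep_LPCs and NPC_LPCs. Cdc20 held rank 4 in Bec_LPCs, 21 in Hep_LPCs and 17 in NPC_LPCs, and Cenpa rank 9 in Bec_LPCs, 34 in Hep_LPCs and 36 in NPC_LPCs. Ranks carry no test here.

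In a list of 113 other mitotic genes a smaller share was called in both Bec_LPCs comparisons than among the 40. In Bec_LPCs against Hep_LPCs 51 of the 113 fell, 45.1%, against 17.2% of all genes, none rose, 13 had a positive sign and the median was -0.98. In Bec_LPCs against NPC_LPCs 11 fell, 9.73%, which is near the 6.43% of all genes, none rose, 18 had a positive sign and the median was -0.45. In Hep_LPCs against NPC_LPCs none was called in edgeR's test, where an unadjusted p under 0.05 was reached by 19 of the 113 in the upward direction, against 10.5% of all genes, and by 1 in the downward direction, 17 had a negative sign and the median was 0.46. Incenp, the scaffold of the chromosomal passenger complex, stood at 48.1 and 55.9 CPM in Bec_LPCs, 295 and 303 CPM in Hep_LPCs and 172 and 182 CPM in NPC_LPCs. It fell in Bec_LPCs against Hep_LPCs (-2.52 ± 0.17, adjusted p = 0.00107) and against NPC_LPCs (-1.77 ± 0.16, adjusted p = 0.00461), while its partner Aurkb was called in neither. Pkmyt1, a kinase that holds Cdk1 inactive before mitosis, stood at 5.99 and 5.62 CPM in Bec_LPCs, 36.9 and 34.4 CPM in Hep_LPCs and 15.4 and 16.1 CPM in NPC_LPCs and fell in Bec_LPCs against Hep_LPCs (-2.62 ± 0.21, adjusted p = 0.00182) and against NPC_LPCs (-1.44 ± 0.20, adjusted p = 0.016). Cenpm, a centromere protein, stood at 2.24 and 2.02 CPM in Bec_LPCs, 21.1 and 33.1 CPM in Hep_LPCs and 7.62 and 9.96 CPM in NPC_LPCs (-3.67 ± 0.35 against Hep_LPCs, adjusted p = 0.00282). Kif20b, a kinesin of late cytokinesis, stood at 23.0 and 33.1 CPM in Bec_LPCs, 169.6 and 133 CPM in Hep_LPCs and 113 and 95.7 CPM in NPC_LPCs (-1.89 ± 0.25 against NPC_LPCs, adjusted p = 0.0138). All 4 were low in both Bec_LPCs libraries.

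DNA replication genes act in the S phase before mitosis. Of 30 such genes 18 fell in Bec_LPCs against Hep_LPCs, 60%, against 17.2% of all genes, and none rose, with a median of -1.26. In Bec_LPCs against NPC_LPCs 1 of the 30 fell, 3.33%, below the 6.43% of all genes, and the median was -0.65. This gene was Fen1, the flap endonuclease of lagging-strand synthesis, with a log2 fold change of -3.63 ± 0.27 (adjusted p = 0.00278). It stood at 3.38 and 3.30 CPM in Bec_LPCs, 64.1 and 81.8 CPM in Hep_LPCs and 34.0 and 48.9 CPM in NPC_LPCs. Fen1 is uncertain, because 84.2% of its exonic length lies over other genes on the opposite strand, mostly the antisense gene Gm10143, and the strand setting of the counting is not given. Gins2, with 67.3% of its exonic length over Gse1 on the opposite strand, is uncertain too. So are Mcm7, Pcna and Rrm2, each with a processed pseudogene of near-identical sequence. All these uncertain genes were among the 18 called lower in Bec_LPCs than in Hep_LPCs. In Hep_LPCs against NPC_LPCs none was called in edgeR's test, where 10 of the 30 reached an unadjusted p under 0.05, all higher, against 10.5% of all genes, and the median was 0.77. The summed level of the 40 mitotic genes was 1.30 and 1.43 times that of the 30 replication genes in Bec_LPCs, 1.93 and 1.77 times in Hep_LPCs, and 1.84 and 1.93 times in NPC_LPCs. Both Bec_LPCs ratios lay below the other 4.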

How the data were processed

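Polyadenylated RNA of 6 mouse LPC libraries was read in paired-end mode from a stranded kit, per the labels' protocols. The submitters' processing notes name HISAT2, HTSeq, Trimmomatic, DESeq and Cufflinks, and build mm10, while the sources used here give no versions, roles, strand setting or annotation. The authors deposited whole-number read counts per gene symbol in each library, and for Hep_LPCs and NPC_LPCs also FPKM, scaled by the authors for length and depth and used here only for an alternative. The Bec_LPCs tables have their own layout, with 21834 rows, 14 of them unnamed (0.000191% and 0.000181% of counts) and left out, against 21878 rows in the others. Older symbols were updated from the reference tables, which left 20540 shared genes holding 95.3% to 99.4% of the counts. No sample column was left unused (0).

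The genes and lists were chosen with earlier results of these data known. Libraries were grouped by title. Genes passing filterByExpr were tested with edgeR's quasi-likelihood test (edgeR 4.0.16, limma 3.58.1, R 4.3.3; TMM scaling, robust estimation, two-sided), with Benjamini-Hochberg adjustment over all genes tested and a call at an adjusted p under 0.05. Hep_LPCs against NPC_LPCs used their 4 libraries, and both Bec_LPCs comparisons used all 6. The procedure was tested on simulated data. The alternatives were DESeq2 1.42.0, limma-voom, other scalings, filters and libraries in the fit, a replicate block, genes counted alike, a length trend removed, and limma on log2(FPKM + 1) and log2(FPKM + 0.1). Values per library are given for genes called in any comparison, the 6 smallest p of each, chosen members of each role, and the extremes of level and replicate difference. Genes sharing over 25% of exonic length with another gene (bedtools 2.31.1), or with a near-identical copy (95% identity or more along 200 bases, minimap2 2.31-r1302), are named uncertain, with positions from GENCODE on mm10.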

Additional observations from a re-analysis of the deposited data

How the results depend on the processing

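The direction of the 3 medians was kept under every alternative tried. For Bec_LPCs against Hep_LPCs, where 33 genes were called lower, the settings other than leaving out a library gave 30 to 37. These settings called 24.9% to 42.0% of all genes in either direction. With libraries left out in turn the calls ranged from 5 to 36 and the median log2 fold change from -1.91 to -1.39. For Bec_LPCs against NPC_LPCs DESeq2 called 20 (19 lower and Cenpa higher) in place of 7, and with libraries left out the calls ranged from 0 to 10 and the median from -1.14 to -0.50. For Hep_LPCs against NPC_LPCs DESeq2 called 9 in place of 0, where 12.3% of all genes were called in either direction. The fit of all 6 libraries called 5, where 9.91% of all genes were called. The median ranged from 0.49 to 1.22 with libraries left out. The cause was not tested. A fit that leaves an arm with 1 library assumes that it varies like the other groups.

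Replicate numbers did not pair the libraries, with correlations of deviations from the group means of -0.0386 between Bec_LPCs and Hep_LPCs, 0.0873 between Bec_LPCs and NPC_LPCs, and -0.00841 between Hep_LPCs and NPC_LPCs. With the replicate block 4 genes were called lower in Bec_LPCs than in NPC_LPCs and 31 lower than in Hep_LPCs, with medians of -0.73 and -1.70. Between Hep_LPCs and NPC_LPCs 0 were called, with a median of 0.81. In the same order, the block called 5.99%, 26.4% and 1.03% of all genes in either direction. Cdc20 then had a value of 0.0004 in Bec_LPCs against NPC_LPCs.

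Some single genes changed sign. In Bec_LPCs against NPC_LPCs, library size alone gave 0.0948 for Ccnb1, 0.0823 for Cdk1 and 0.1017 for Cdc20. In Bec_LPCs against Hep_LPCs, Cenpa had 0.1161 with library size alone and 0.1304 with the length trend removed. Library size alone moved the median of all genes to 0.17 in Bec_LPCs against NPC_LPCs and to 0.21 in Bec_LPCs against Hep_LPCs. It put 939 of 1533 called genes higher in Bec_LPCs than in NPC_LPCs, in place of 628 of 1455, and 2700 of 4436 higher than in Hep_LPCs, in place of 2075 of 4293. With libraries left out, Hep_LPCs against NPC_LPCs ran from -0.0088 to 0.86 in Bub1b, -0.0590 to 0.82 in Cenpe, -0.0596 to 0.91 in Cenpf, -0.32 to 0.82 in Mki67, -0.22 to 0.93 in Kif2c and -0.0001 to 0.96 in Cdc20. Bec_LPCs against NPC_LPCs ran from -0.80 to 0.0217 in Ccnb2, -0.45 to 0.33 in Cdk1, -0.77 to 0.19 in Aurkb, -1.21 to 0.0191 in Kif23, -0.49 to 0.0510 in Ect2 and -0.50 to 0.49 in Cdc20. Bec_LPCs against Hep_LPCs ran from -0.26 to 0.18 in Cenpa and -0.48 to 0.18 in Pttg1. None of these was called in its comparison, and some of their values were sizeable, such as -0.69 in Kif23 and -0.42 in Ccnb2 for Bec_LPCs against NPC_LPCs.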
